A study of Mus musculus with 21 samples.

Results

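The 10 genes described here are Axin2, Nkd1, Lgr5, Glul, Slc1a2, Oat, Rhbg, Cyp2e1, Cyp1a2 and Lect2, a set of liver genes that depend on Wnt signalling and, for most of them, are expressed by the hepatocytes around the central vein. They were selected by symbol from a deposited expression table of 22520 genes, and all 10 had a row. The set was chosen from measured values: its low levels after carbon tetrachloride (CCl4) in 3 genotypes and its higher levels in the fourth. The CCl4 values below are therefore a description with no test. RNA-seq of mouse liver covered 4 genotypes in 3 conditions, 12 groups in all. The genotypes were Ezh2fl/fl without Cre (WT), Ezh1-/- (E1KO), Ezh2fl/fl with Alb-Cre (E2KO) and Ezh1-/- Ezh2fl/fl with Alb-Cre (DKO), on a mixed 129SV::FVB/N::C57BL/6 background. Untreated livers came from mice aged 2 or 8 months, and CCl4-injected mice were 3 months old. Either Ezh1 or Ezh2 serves as the enzyme of the Polycomb complex PRC2, which methylates histone H3 at lysine 27. Alb-Cre is active in hepatocytes, and liver cells without Cre activity keep Ezh2, whereas Ezh1 is missing from every cell of E1KO and DKO mice. Neither the CCl4 dose nor the number of injections nor the time from injection to sampling is stated in the labels.

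In the liver lobule, Wnt ligands and R-spondins from the endothelium of the central vein activate beta-catenin in the neighbouring hepatocytes. The genes this switches on fall into Wnt feedback genes, a programme of ammonia capture and glutamine synthesis, and cytochrome P450 enzymes of drug metabolism, while periportal hepatocytes carry out urea synthesis and gluconeogenesis. CCl4 is converted to its toxic radical mainly by the product of Cyp2e1, and the injury falls on the cells around the central vein.

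Each gene has 1 deposited value per genotype and condition, in FPKM (fragments scaled to gene length and to the mapped fragments of the library). The titles speak of replicates 1 to 3 for most groups and 1 to 2 for the 8-month groups, but no spread between animals can be had from 1 value, and the sequencing depth is unknown. Column sums ran from 531761 to 674119 FPKM. Ezh1 was 1.96 to 2.50 FPKM in the WT and E2KO columns and 0.06 to 0.27 in the E1KO and DKO columns, except for 0.88 in the column labelled E1KO at 8 months. That column also held 315 FPKM in summed skeletal muscle markers, against 0.97 to 1.75 in the other 11. Ezh2 in whole liver of WT, E1KO, E2KO and DKO was 1.11, 0.80, 0.84 and 0.74 FPKM at 2 months, 0.91, 0.78, 0.79 and 1.27 at 8 months, and with CCl4 5.68, 4.68, 3.92 and 2.51. The untreated columns thus do not show the labelled Ezh2 loss: E2KO was level with E1KO, and DKO at 8 months was the highest. General hepatocyte markers such as Hnf4a, Fgb and Apob were present in every column. All 10 genes passed the filter for testing (at least 1 FPKM in at least 2 of 12 columns), as did 11394 genes in all, and all 10 also passed it without the DKO columns.

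Promoter sequences are shown because TCF/LEF factors, which carry the beta-catenin signal to DNA, recognise the core letters CTTTGA, which read as TCAAAG on the other strand. The 250 bases upstream of the RefSeq start (GRCm38.p6) were at hand for 8 of the genes. Rhbg and Lgr5 had no entry. The core was found in 4 of the 8, against 13.8% of 32851 promoters in the same table and 10.9% of those of tested genes. It was in 15.2% of 33 promoters of other pericentral genes and in 23.8% of 21 promoters of periportal genes. Slc1a2 (chr2:102706188-102706437, plus strand) held it at 206 and 77 bases before the start, Cyp2e1 (chr7:140763569-140763818, plus strand) at 135, Cyp1a2 (chr9:57683656-57683905, minus strand) at 243 and Lect2 (chr13:56548539-56548788, minus strand) at 31. Positions are those of the first letter of the match. In the sequences, read 5′ to 3′ along the gene, capitals mark the matches.
Slc1a2: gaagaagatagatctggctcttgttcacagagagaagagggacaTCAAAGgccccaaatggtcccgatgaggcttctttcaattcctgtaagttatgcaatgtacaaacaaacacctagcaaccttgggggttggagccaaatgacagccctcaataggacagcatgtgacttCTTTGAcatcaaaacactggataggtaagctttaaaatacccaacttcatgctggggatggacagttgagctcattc
Cyp2e1: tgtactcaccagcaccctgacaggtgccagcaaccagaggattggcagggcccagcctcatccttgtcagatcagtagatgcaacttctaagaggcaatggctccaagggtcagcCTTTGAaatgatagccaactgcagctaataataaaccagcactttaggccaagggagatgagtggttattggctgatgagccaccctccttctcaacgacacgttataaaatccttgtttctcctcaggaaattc
Cyp1a2: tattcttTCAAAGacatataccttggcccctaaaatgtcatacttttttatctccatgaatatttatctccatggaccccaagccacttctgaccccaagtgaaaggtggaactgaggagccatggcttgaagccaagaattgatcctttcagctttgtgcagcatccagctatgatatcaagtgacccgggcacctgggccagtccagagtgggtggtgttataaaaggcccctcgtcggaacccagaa
Lect2: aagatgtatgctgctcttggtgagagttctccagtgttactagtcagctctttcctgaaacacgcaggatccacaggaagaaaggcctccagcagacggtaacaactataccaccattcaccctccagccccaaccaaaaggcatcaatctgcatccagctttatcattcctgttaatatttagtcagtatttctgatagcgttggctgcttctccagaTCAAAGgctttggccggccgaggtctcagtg
The windows of Axin2, Nkd1, Glul and Oat did not hold these letters. A match is a description of the sequence and not a site of binding, and the windows leave out more distant elements.

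After CCl4, Glul, Slc1a2, Oat, Rhbg and Cyp2e1 were at least 2-fold lower in WT, E1KO and E2KO livers. In DKO, Glul, Slc1a2 and Oat were less reduced but still at least 2-fold lower. Cyp2e1 was also less reduced in DKO, and Rhbg was higher there than at 2 months. Cyp2e1 stood at 8.65%, 2.64% and 6.56% of its 2-month level in WT, E1KO and E2KO and at 81.0% in DKO. Glul, the glutamine synthetase gene, stood at 10.2%, 7.22% and 11.4% and at 45.7% in DKO. Cyp1a2 was reduced less, and the Wnt feedback genes Axin2 and Nkd1 and the secreted factor Lect2 were not 2-fold lower in any genotype. In whole liver, fewer cells of a type and less RNA per cell cannot be told apart. The samples include no RNA group of untreated liver at 3 months, so treatment and age also cannot be told apart. The 2-month column of the same genotype was the reference.

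**Figure D1:**
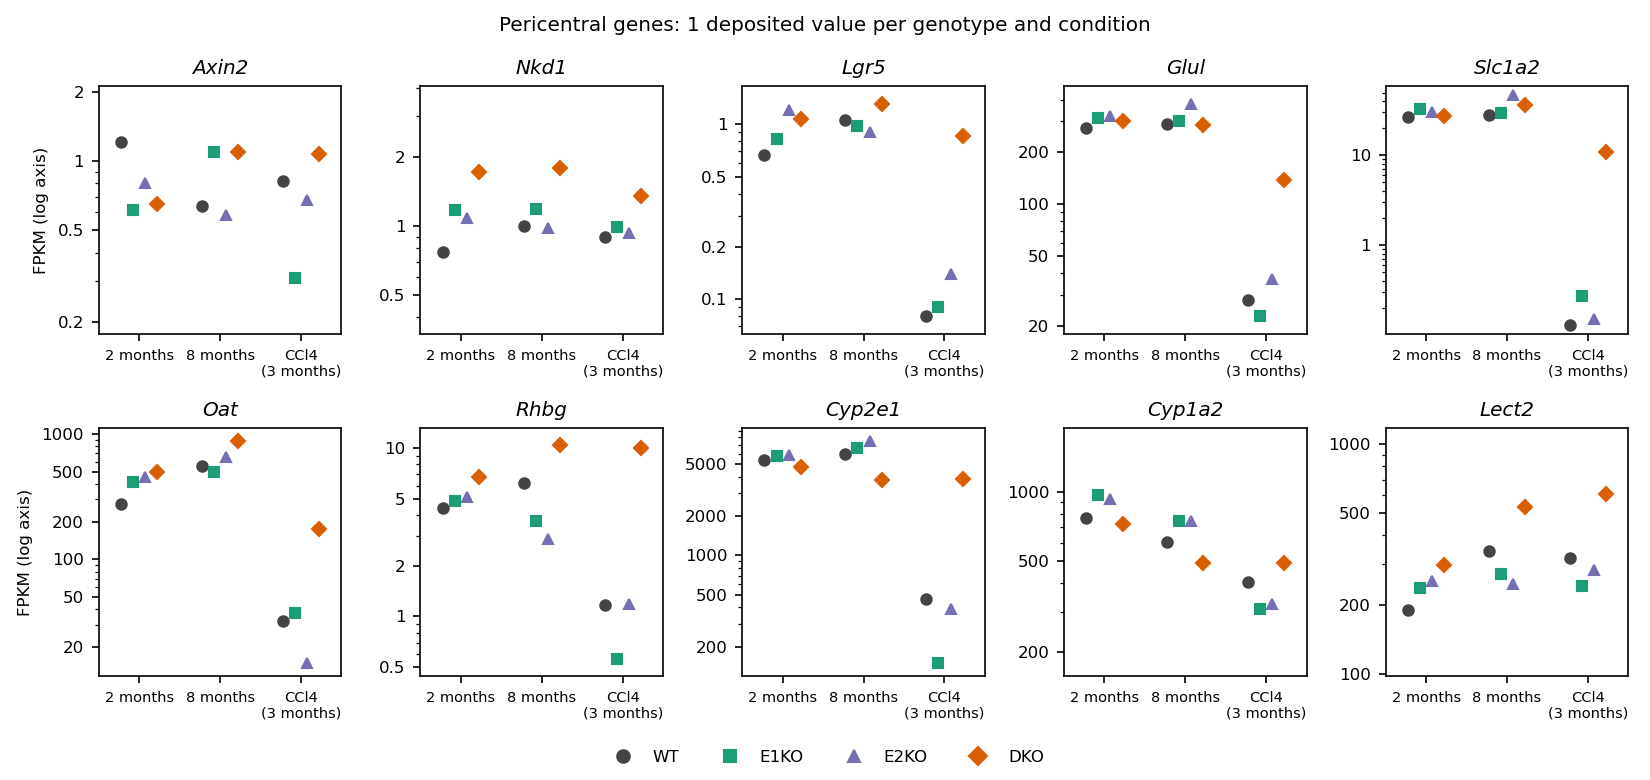
FPKM of each of the 10 genes (y axis, log scale, different in each panel) at each age and with CCl4 (x axis), with 1 point per genotype and no error because each group has 1 value. With CCl4 the DKO point is the highest in all 10 panels (in 8 after scaling to hepatocyte markers, not shown), by 83.0-fold over WT for Slc1a2 and by 1.21-fold over WT for Cyp1a2. The Slc1a2 ratio is rough, because the WT value of 0.13 FPKM is near the 2-decimal resolution. On log2(FPKM+1) that gap is 3.38.

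Among the Wnt feedback genes, Axin2 encodes a scaffold of the complex that destroys beta-catenin and is a common readout of Wnt activity. In the order WT, E1KO, E2KO and DKO, Axin2 measured 1.21, 0.61, 0.80 and 0.65 FPKM at 2 months, 0.64, 1.09, 0.58 and 1.09 at 8 months, and with CCl4 0.82, 0.31, 0.68 and 1.07. The treated and untreated values overlapped in WT, E2KO and DKO, and the E1KO value with CCl4 was the lowest of the 12. Nkd1, which encodes an inhibitor that binds Dishevelled, measured 0.77, 1.17, 1.08 and 1.71 FPKM at 2 months, 1.00, 1.19, 0.98 and 1.79 at 8 months, and with CCl4 0.90, 0.99, 0.93 and 1.35. DKO had the highest Nkd1 value in each of the 3 conditions, and its value with CCl4 was below both of its untreated ones.

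Lgr5 encodes a receptor for R-spondins and marks pericentral hepatocytes with high Wnt activity. Lgr5 measured 0.67, 0.83, 1.21 and 1.07 FPKM at 2 months, 1.06, 0.98, 0.91 and 1.31 at 8 months, and with CCl4 0.08, 0.09, 0.14 and 0.86. The 3 low values are near the 2-decimal resolution of the table and lay below all 8 untreated values, whereas the DKO value lay among them. On the FPKM scale Lgr5 was at 11.9%, 10.8% and 11.6% of the 2-month level in WT, E1KO and E2KO and at 80.4% in DKO. At such levels the log2(FPKM+1) scale shows much less, with differences of -0.63, -0.75, -0.96 and -0.15.

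The next genes handle ammonia and glutamine. Glul, whose product joins ammonia to glutamate in the last rows of hepatocytes before the central vein, measured 275, 313, 323 and 302 FPKM at 2 months, 289, 301, 379 and 287 at 8 months, and with CCl4 28.1, 22.6, 36.8 and 138. All 4 treated values were below all 8 untreated ones, and DKO was 4.91-fold, 6.10-fold and 3.75-fold above WT, E1KO and E2KO. Slc1a2 encodes the glutamate transporter GLT-1, which brings the substrate into these cells. Slc1a2 measured 26.6, 32.8, 30.7 and 27.7 FPKM at 2 months, 27.8, 29.8, 46.7 and 36.4 at 8 months, and with CCl4 0.13, 0.27, 0.15 and 10.8. It was nearly absent from the WT, E1KO and E2KO columns, at under 1% of the 2-month level (0.489%, 0.822% and 0.488%), and stood at 38.9% in DKO. These low values are near the 2-decimal resolution, so the small percentages are rough. On the log2 scale the WT difference was -4.61, and it ran from -6.86 to -2.62 over other references, scalings and pseudocounts.

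Oat encodes ornithine aminotransferase, a mitochondrial enzyme that feeds ornithine carbon and nitrogen towards glutamate. Oat measured 278, 411, 455 and 494 FPKM at 2 months, 557, 500.3, 657 and 880.4 at 8 months, and with CCl4 32.4, 37.4, 14.9 and 173. All 4 treated values lay below all untreated ones, with E2KO the lowest at 3.27% of its 2-month level and DKO at 35.1%. Rhbg encodes an ammonium transporter of the Rhesus family. Rhbg measured 4.39, 4.87, 5.13 and 6.73 FPKM at 2 months, 6.22, 3.70, 2.87 and 10.4 at 8 months, and with CCl4 1.17, 0.56, 1.18 and 10.1. Treated WT, E1KO and E2KO lay below all untreated values, at 26.7%, 11.5% and 23.0% of 2 months, while treated DKO was at 149.8% and was exceeded only by DKO at 8 months.

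Cyp2e1, the P450 that activates CCl4, was the most abundant of the 10 genes. Cyp2e1 measured 5359, 5724, 5883 and 4759 FPKM at 2 months, 5965, 6635, 7466 and 3778 at 8 months, and with CCl4 464, 151, 386 and 3857. Untreated DKO already had the lowest value at each age, and treated DKO lay between its own 2 untreated values. Treated DKO was 8.32-fold, 25.5-fold and 9.99-fold above treated WT, E1KO and E2KO. Cyp1a2, a P450 that metabolises aromatic amines and caffeine, measured 767, 965, 929.6 and 719.8 FPKM at 2 months, 604, 745, 744.5 and 490.9 at 8 months, and with CCl4 403, 308, 324 and 489. Its loss was milder than that of Cyp2e1, to 52.6%, 31.9% and 34.9% in WT, E1KO and E2KO, beside 67.9% in DKO. Against the 8-month column, Cyp1a2 in treated DKO differed by -0.01 on the log2 scale.

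Lect2, a secreted hepatokine whose gene is a beta-catenin target, was not lower with CCl4 than at 2 months in any genotype on the deposited scale. After either scaling its E1KO difference of 0.03 was slightly negative. Lect2 measured 189, 235, 253 and 298 FPKM at 2 months, 341, 271, 247 and 532 at 8 months, and with CCl4 318, 241, 283 and 609. Treated WT, E1KO and E2KO lay within the untreated range, and treated DKO was the highest of the 12 values, at 204.5% of 2 months and 1.91-fold above treated WT. Measured from 8 months, the difference of Lect2 in treated DKO was 0.19 on the log2(FPKM+1) scale, against 1.03 from 2 months. In FPKM, treated WT and E1KO were below their 8-month values, at 93.3% and 88.8%. Treated E2KO and DKO were each at 114.5%.

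Counted by a fixed size, a difference of at least 1 on log2(FPKM+1), 5 of the 10 genes were lower with CCl4 in WT, 6 in E1KO, 6 in E2KO and 3 in DKO. The same held for 5.23%, 7.07%, 6.03% and 3.96% of all tested genes. Glul, Slc1a2, Oat, Rhbg and Cyp2e1 were lower in WT, E1KO and E2KO alike, as were 325 genes in all (2.85%). Of these 5, Glul (-1.12), Slc1a2 (-1.29) and Oat (-1.51) were past that size in DKO too, and Rhbg (0.52) and Cyp2e1 (-0.30) were not. Of the 325 genes, 206 were past it in DKO too and 119 were not. Just outside the size in WT stood Cyp1a2 (-0.93), which was inside it in E1KO (-1.64) and E2KO (-1.52). Just inside it in WT stood Rhbg (-1.31). As the set was chosen on this contrast, nothing is read from these counts.

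**Figure D2:**
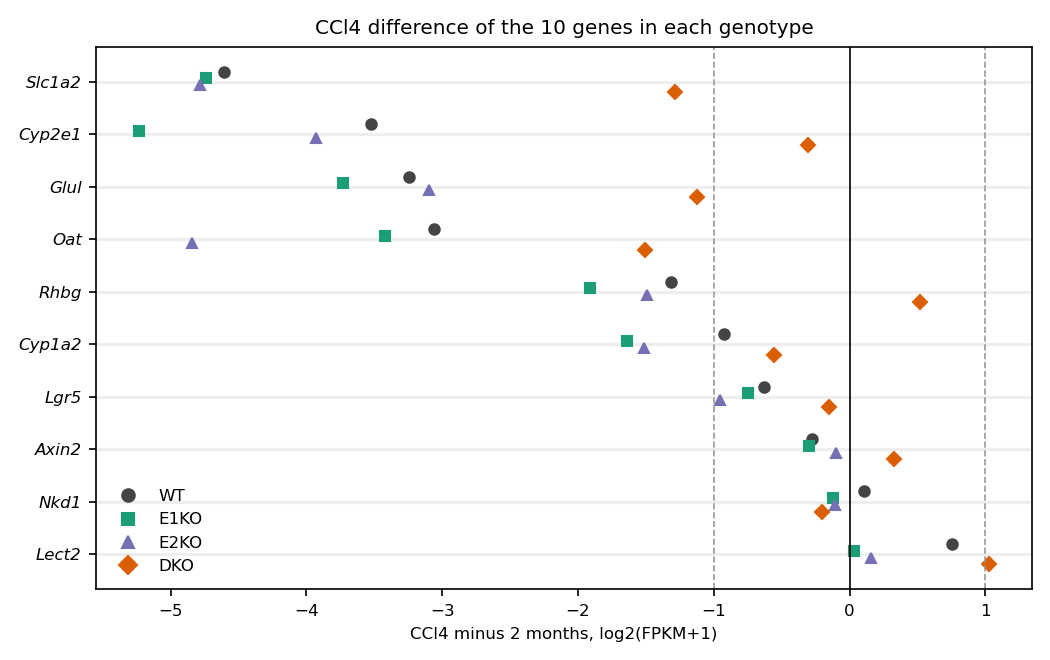
Difference in log2(FPKM+1) between CCl4 and 2 months (x axis) for each of the 10 genes (rows, ordered by the WT difference), with 1 point per genotype and dashed lines at the 2-fold size. For Cyp2e1 the points are at -3.53 in WT, -5.23 in E1KO and -3.93 in E2KO but at -0.30 in DKO, and for Nkd1 all 4 lie between -0.21 and 0.10.

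The size of the gap between DKO and the rest depends on the scale, and low genes such as Lgr5 are understated here. On log2(FPKM+1), the CCl4 difference in DKO minus the mean of the other genotypes was 3.93 for Cyp2e1, 3.42 for Slc1a2, 2.27 for Oat, 2.23 for Glul and 2.09 for Rhbg, and these 5 are past the size that 2.34% of tested genes reach. In order among the 11394 genes they were numbers 16, 21, 53, 54 and 61. Cyp1a2 (0.80), Lect2 (0.72), Lgr5 (0.62) and Axin2 (0.55) followed, and Nkd1 stood at -0.16. In 9 of the 10 genes, all but Nkd1, the DKO difference was above that of each other genotype, as in 29.8% of tested genes. After scaling to hepatocyte markers this held for 7, with Cyp1a2 and Lect2 no longer among them.

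Levels with CCl4 were compared between genotypes as well. DKO had the highest value of the 4 genotypes for 10 of 10 genes (8 after scaling to hepatocyte markers, without Axin2 and Cyp1a2), where 30.6% of tested genes did. DKO was at least 2-fold above WT for 5 genes, above E1KO for 6 and above E2KO for 6, sizes that 2.93%, 2.98% and 2.75% of tested genes reached. For Glul, Slc1a2, Oat, Rhbg and Cyp2e1 it was at least 2-fold above each of the 3, as for 1.72% of genes, and these 5 were so under both other scalings too. Counts by fold are on the log2(FPKM+1) scale and so leave out Lgr5, whose FPKM in treated DKO was 10.8-fold, 9.56-fold and 6.14-fold that of WT, E1KO and E2KO. These comparisons share the treated DKO column and are not independent of each other.

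**Figure D3:**
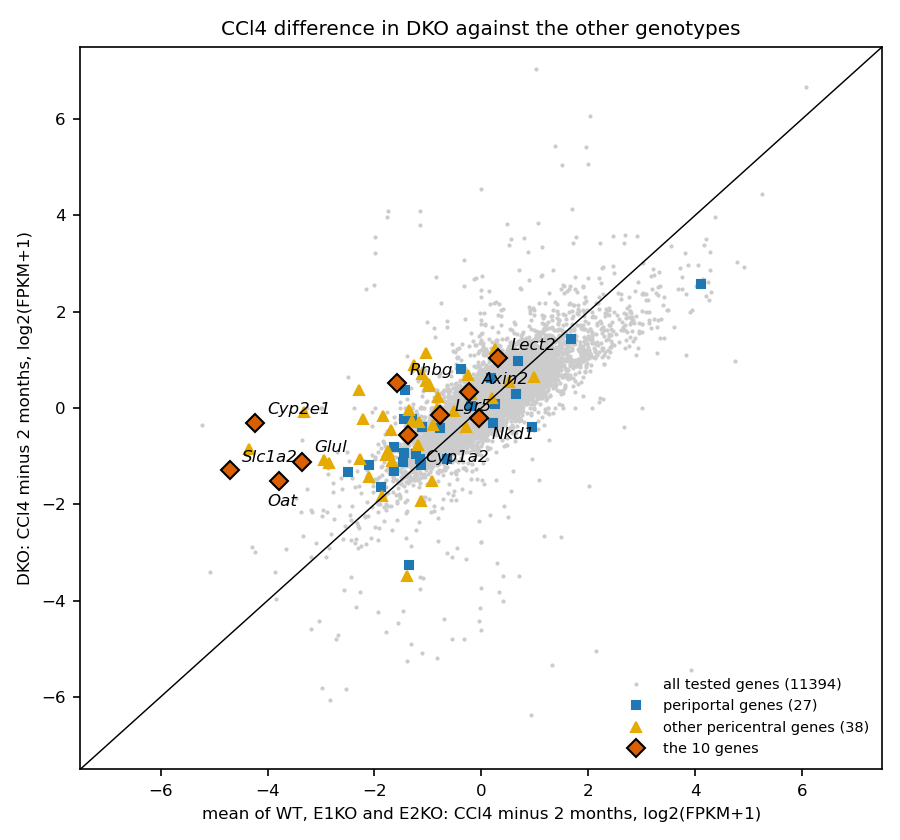
Difference in log2(FPKM+1) between CCl4 and 2 months in DKO (y axis) against the mean of WT, E1KO and E2KO (x axis), 1 point per gene, for all 11394 tested genes, the 10 genes, 38 other pericentral genes and 27 periportal genes; the line marks equal differences. Cyp2e1, Slc1a2, Oat and Glul lie far left of the line, with 2.23 to 3.93 between the axes, and Nkd1 lies on its other side.

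The smaller loss was not a feature of every gene that was low in treated WT. Of 123 genes at least 4-fold lower in WT with CCl4, 4 of them from the set, 65.9% were at least 2-fold lower in E1KO, 66.7% in E2KO and 65.9% in DKO. The median differences of these genes were -2.81 in WT, -2.16 in E1KO, -2.10 in E2KO and -1.57 in DKO. The WT value is low in part because these genes were picked on it.

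Other genes of the pericentral zone, from a list of 38 tested genes that leaves out the 10, had median differences of -1.12, -1.61, -1.27 and -0.19 in WT, E1KO, E2KO and DKO, beside medians of 0.06, 0.05, 0.07 and 0.08 over all tested genes. At least 2-fold lower were 20, 26, 22 and 9 of the 38. After scaling to the general hepatocyte markers the counts were 13, 26, 22 and 13, so that this count no longer differed between WT and DKO. Those markers moved with CCl4 themselves, with median differences of -0.35, 0.33, -0.02 and 0.60 in WT, E1KO, E2KO and DKO. On the deposited scale, 16 of the 38 were lower in WT, E1KO and E2KO alike. Of these 16, 6 were lower in DKO as well and 10 were not. Over all tested genes, 206 of 325 such genes were lower in DKO as well and 119 were not. The difference between these shares was not tested. Cyp2c37, a P450 of arachidonic acid metabolism, measured 17.0, 5.91 and 17.9 FPKM in treated WT, E1KO and E2KO and 185 in treated DKO. Its reads may be shared with near-identical Cyp2c genes, and the same holds for Cyp2a5. Ang (-2.81 in WT, -0.23 in DKO) and Rnase4 (-2.57 and 0.37), which encode secreted ribonucleases and overlap in the genome so that their reads are hard to tell apart, had the other large differences in WT. Tbx3, a transcription factor gene and Wnt target in hepatocytes, measured 1.11, 0.35, 0.91 and 2.90 FPKM with CCl4, after 8.34, 3.28, 3.62 and 4.33 at 2 months. Nr1i3, the gene of the drug-sensing receptor CAR, measured 17.7, 11.6, 22.9 and 26.9 FPKM with CCl4.

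Periportal genes were also lower with CCl4 and, at the median, least so in DKO on the deposited scale. Of 27 tested, 12, 14, 13 and 9 were at least 2-fold lower with CCl4 in WT, E1KO, E2KO and DKO, and the medians were -0.97, -1.13, -0.99 and -0.39. Scaling to hepatocyte markers turned these counts to 5, 17, 14 and 12, so that DKO no longer had the smallest count. The DKO difference was above that of each other genotype in 14 of the 27, or in 6 after this scaling. None was at least 2-fold higher in treated DKO than in each other genotype, whereas 5 of the 10 genes and 11 of the 38 other pericentral genes were (8 of the 38 after that scaling). The 10 genes were chosen for that pattern, and the difference between the lists was not tested. Otc, a urea cycle gene, differed by -2.34 in WT and -1.34 in DKO, Pck1, a gluconeogenesis gene, by -2.33 and -1.18, and the apolipoprotein gene Apoa4 by 4.02 and 2.57. Cps1, the entry enzyme of the urea cycle, measured 415, 323, 315 and 241 FPKM with CCl4. Cyp2f2, a periportal P450, measured 502, 288, 471 and 51.7 FPKM with CCl4 and 1062, 912, 1156 and 505 at 2 months, so that it was lowest in DKO in both.

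**Figure D4:**
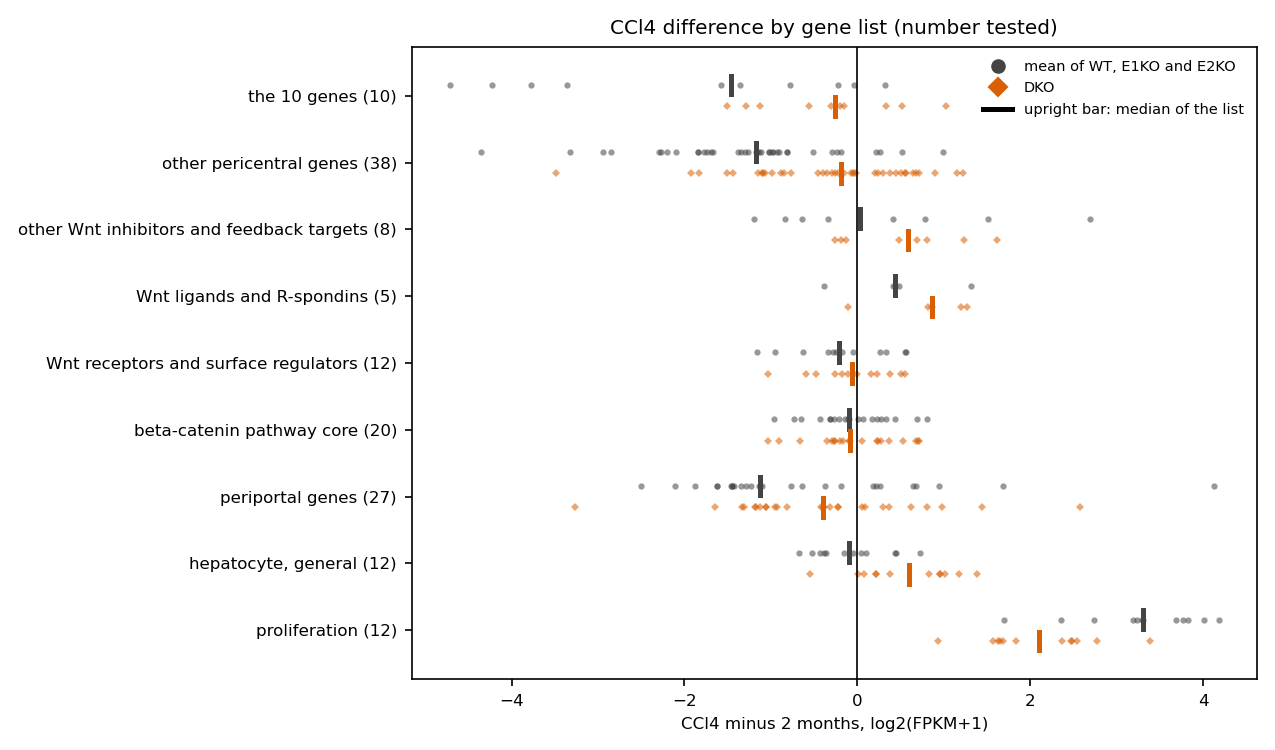
Difference in log2(FPKM+1) between CCl4 and 2 months (x axis) for the tested genes of each list (rows), with 1 point per gene for the mean of WT, E1KO and E2KO (grey) and for DKO (orange); upright bars are medians, not errors. The medians of the 10 genes are -1.47 and -0.25, and those of the beta-catenin pathway core lie together at -0.10 and -0.09.

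On log2(FPKM+1), differences were smaller in the upstream parts of the Wnt pathway. Many of these genes were low, and that scale understates their changes. Of 25 ligand and secretion genes in the table, 5 passed the filter: Wnt2, Wnt5b, Rspo3, Wls and Porcn. Wnt2, a ligand of liver endothelium, measured 0.56, 0.88, 0.85 and 0.83 FPKM at 2 months and 1.45, 1.29, 1.25 and 2.21 with CCl4. Rspo3, the R-spondin of the central vein, measured 1.82, 1.65, 1.61 and 1.83 and then 2.51, 3.03, 2.39 and 4.15. Both were higher with CCl4 in every genotype and highest in DKO. Wls, which escorts Wnt proteins to the surface, differed by 1.29, 1.36, 1.30 and 1.27, and Wnt5b by 0.57, 0.18, 0.68 and 1.20. In FPKM, Wls with CCl4 was at 408%, 391%, 405% and 336% of its 2-month level. Wnt9b, another ligand of liver endothelium, did not pass the filter and lay between 0.26 and 0.44 FPKM in the 12 columns.

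Among 12 receptors and surface regulators, 1 gene in each genotype was at least 2-fold lower on log2(FPKM+1). It was Fzd8 in WT, E1KO and DKO and Lgr4 in E2KO. Fzd8, a Wnt receptor, differed by -1.21, -1.50, -0.78 and -1.03 in WT, E1KO, E2KO and DKO. Lgr4, the R-spondin receptor of hepatocytes, differed by -0.95, -0.85, -1.06 and -0.60. The ubiquitin ligases that remove Wnt receptors, themselves feedback genes, measured 0.67, 0.68, 0.65 and 1.08 FPKM (Znrf3) and 3.16, 1.82, 2.94 and 2.76 FPKM (Rnf43) with CCl4. In FPKM, Znrf3 was at 42.4%, 42.2%, 42.8% and 56.8% of its 2-month level, and Rnf43 at 80.2%, 81.25%, 77.0% and 85.2%. Ctnnb1, the beta-catenin gene, measured 51.4, 39.4, 51.9 and 42.3 FPKM at 2 months and 59.0, 58.8, 54.0 and 61.3 with CCl4, and so was not lower in treated liver. Tcf7l2, the main TCF gene of hepatocytes, was lower with CCl4 in all genotypes, with differences of -0.73, -0.60, -0.87 and -0.91. Dvl1, a Dishevelled gene, differed by -0.98 in WT and -1.04 in DKO, and the kinase gene Csnk1a1 and the ubiquitin ligase gene Fbxw11 by 0.80 and 0.72 and by 0.74 and 0.70.

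Further Wnt feedback and target genes were mixed. Of 8 that passed the filter, none was at least 2-fold lower on log2(FPKM+1) in WT, E2KO or DKO, and Notum was in E1KO. That scale understates changes of low genes. Sp5, a transcription factor gene switched on by Wnt, measured 1.23, 0.96, 0.84 and 1.16 FPKM at 2 months and 0.13, 0.03, 0.20 and 0.90 with CCl4, low in the same 3 treated columns as Lgr5. In FPKM, Sp5 was thus 9.46-fold, 32-fold and 4.2-fold lower in WT, E1KO and E2KO and 1.29-fold lower in DKO. The low treated values, 0.03 to 0.20 FPKM, are near the 2-decimal resolution, so the larger ratios are rough. Notum and Tnfrsf19 are named here after their values were seen. Notum, a secreted enzyme that inactivates Wnt proteins, measured 5.71, 3.03, 7.26 and 10.6 FPKM with CCl4, and the receptor gene Tnfrsf19 0.45, 0.23, 0.43 and 2.22. Ccnd1, the cyclin D1 gene, was higher with CCl4 in all genotypes (2.97 in WT, 1.24 in DKO) from a DKO level of 29.6 FPKM at 2 months against 5.05 in WT, and Cd44, a surface glycoprotein gene, differed by 1.16 and 1.62.

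Marker sums of other cell types moved with CCl4 and partly with genotype. Proliferation markers summed to 371, 259, 317 and 145 FPKM in treated WT, E1KO, E2KO and DKO (29.0 to 41.6 untreated), so that treated DKO was the lowest for these as it was the highest for the 10 genes. General hepatocyte markers summed to 19652, 26875, 25147 and 28024 FPKM (11878 to 26626 untreated). Endothelial markers summed to 150, 181, 153 and 167 FPKM (58.4 to 113 untreated). Stellate cell and myofibroblast markers summed to 295, 422, 306 and 320.2 FPKM, and macrophage markers to 425, 933, 545 and 755 FPKM. The DKO sum of the stellate list is mostly Dcn, a matrix proteoglycan gene, at 176 FPKM. Of the 12 genes of that list, 4 were highest in treated DKO. Acta2, Tagln and Timp1, named after their values were seen, were lowest there. Acta2, the smooth muscle actin gene, measured 37.6, 64.5, 31.4 and 6.98 FPKM. Tagln, an actin-binding protein gene, measured 63.5, 106.9, 56.3 and 19.1 FPKM, and Timp1, a protease inhibitor gene, 16.7, 42.4, 21.1 and 9.18. No marker of these lists was at 0 in a treated column. Scaled to the hepatocyte markers, the median difference between DKO and the rest over the 10 genes was 0.93 in place of 1.45. The part of the other markers in the result was not tested.

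In untreated liver, no difference of DKO passed the test for these genes. The fit leaves out the CCl4 columns, but its 2-month columns were also the reference of the contrast on which the set was chosen, so it is only partly independent of that choice. Genotype and age were fitted together with limma on the 8 untreated columns, which estimates the spread from departures from additivity and not from animals. No gene of the set passed an adjusted p of 0.05 in any contrast, beside 0.219% of tested genes for DKO against WT, 0.0351% for E1KO against WT, 0% for E2KO against WT (302 genes at an unadjusted p under 0.05), 0.202% for DKO against E2KO and 0.588% for 8 against 2 months. With so few calls anywhere, the intervals are wide and no statement of equality follows. For DKO against WT the difference in Nkd1 was 0.55 ± 0.10 (SE; limma adjusted p = 0.157), with DKO higher at both ages. That of Oat was 0.75 ± 0.22 (SE; limma adjusted p = 0.286), also higher at both ages. For Lect2 it was 0.65 ± 0.27 (SE; limma adjusted p = 0.396), for Rhbg 0.59 ± 0.32 (adjusted p = 0.491) and for Cyp2e1 -0.42 ± 0.29 (adjusted p = 0.588). Glul differed by 0.06 ± 0.15 (SE; limma adjusted p = 0.911) and Axin2 by -0.04 ± 0.22 (adjusted p = 0.968).

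Against E2KO, the DKO difference in Rhbg was 0.95 ± 0.32 (SE; limma adjusted p = 0.203). With age, Oat was higher at 8 months in all 4 genotypes, by 0.66 ± 0.16 (SE; limma adjusted p = 0.126), and Cyp1a2 lower in all 4, by -0.40 ± 0.12 (SE; limma adjusted p = 0.169). Without the column labelled E1KO at 8 months, no gene of the set passed either. Of the listed genes outside the set, Aldh3a2, a pericentral aldehyde dehydrogenase gene, rose with age by 1.78 ± 0.20 (SE; limma adjusted p = 0.0425) and was higher at 8 months in all 4 genotypes. The stellate cell marker Col1a1 was higher in DKO than in E2KO by 1.50 ± 0.13 (SE; limma adjusted p = 0.0368) and at both ages.

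**Figure D5:**
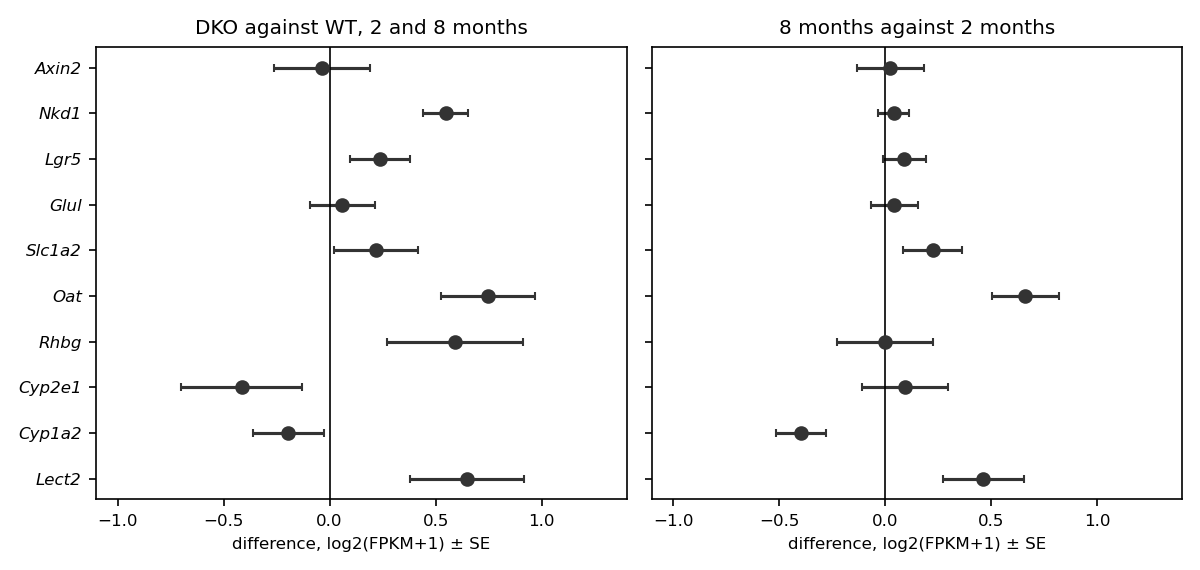
Differences in log2(FPKM+1) from the additive limma fit on 8 untreated columns (x axis, with standard errors from that fit) for the 10 genes, DKO against WT on the left and 8 against 2 months on the right. Nkd1 (0.55) and Oat (0.75) lie to the right for DKO against WT and Oat (0.66) for age, and none passed the adjusted threshold.

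The 6 genes Glul, Slc1a2, Oat, Rhbg, Cyp2e1 and Lgr5 ran together over the 12 columns, with Pearson r from 0.775 to 0.992 (median 0.941) over their 15 pairs. Over the 8 untreated columns the same pairs ranged from -0.925, for Rhbg and Cyp2e1, to 0.794 (median 0.251). Treated WT, E1KO and E2KO, low for all 6 genes, are the columns on which the genes were chosen. The columns share a scaling and a treatment split, and r is given as a description only. By the same measure over 12 columns the genes outside the set most like Glul were Camk2n1 (0.987), Atp5sl (0.985), 1500017E21Rik (0.979), Mettl7a1 (0.978) and Sirt2 (0.978). Those most like Cyp2e1 were Pon1, Rgn, Cyp2c54, Cyp2c37 and Pipox, at 0.973 to 0.974. For Axin2 the closest reached lower values, 0.705 for Inhbe, 0.699 for Ces2c, 0.658 for Tbx3, 0.656 for Dffa and 0.648 for Inpp5b. Most like Lect2 were Dcn (0.907), Cdkn2a (0.902), Efemp1 (0.896), Galnt11 (0.895) and Gas6 (0.889). Gas6, a secreted ligand of TAM receptors, measured 10.4, 14.4, 11.8 and 92.7 FPKM with CCl4, highest in DKO as Lect2 was. By Spearman's rho, none of the 5 genes given for Glul or Cyp2e1 and 1 of the 5 for Axin2 and for Lect2 were again among the 5 closest.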

How the data were processed

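Libraries were made from 1 ug of total liver RNA with the TruSeq kit, per the labels' protocols. The authors deposited 1 table of FPKM values to 2 decimals, with 1 column for each of 12 groups. The submitters' processing notes name CASAVA, TopHat, Cufflinks, BWA, SICER, HOMER and mm9. Neither the versions nor how replicates were combined is given in the sources used here. Depth is unknown, so no counting intervals are given. The 9 ChIP-seq samples were not analysed here.

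Values were used as log2(FPKM+1), which understates changes of low genes. CCl4 comparisons are differences between single values. Untreated genotype and age contrasts were fitted with limma 3.58.1 (R 4.3.3; lmFit, eBayes with trend, 3 residual degrees of freedom, two-sided), with Benjamini-Hochberg adjustment over 11394 genes at 0.05. The script was tested on simulated data. Genes outside the set are those passing this test in a list, the 3 with the largest CCl4 difference in WT per list, pathway genes listed by name, and the 5 of at least 5 FPKM most like Glul, Cyp2e1, Axin2 and Lect2. The genes and lists were chosen with earlier results of these data known. Alternatives varied the pseudocount, filter, scaling, reference column and columns fitted.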

Additional observations from a re-analysis of the deposited data

Results flagged for a closer look

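For 2 genes the CCl4 difference from 2 months had opposite signs in DKO and in each of WT, E1KO and E2KO. Each group has 1 value, and the difference between genotypes was not tested. Rhbg differed by 0.52 in DKO and by -1.31, -1.91 and -1.49 in WT, E1KO and E2KO, a gap of 2.09 between DKO and their mean. Axin2 differed by 0.33 in DKO and by -0.28, -0.30 and -0.10 in the others, a gap of 0.55. With the 8-month columns as reference the gap of Axin2 was 0.13 and that of Rhbg 1.34. Neither contrast of signs held there. Axin2 with CCl4 was at 128%, 28.4%, 117% and 98.2% of 8 months in WT, E1KO, E2KO and DKO. Rhbg was at 18.8%, 15.1%, 41.1% and 96.7%, lower in every genotype. In untreated liver, Cyp2e1 was lower at 8 than at 2 months in DKO (-0.33) and higher in WT (0.15), E1KO (0.21) and E2KO (0.34), a gap of -0.57 that was likewise not tested.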

How the results depend on the processing

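Of 21 differences of at least 2-fold between CCl4 and 2 months in the 10 genes, all 21 kept their sign in the 7 alternatives of reference, scaling and pseudocount, and 17 stayed past 2-fold in all 7. Rhbg in WT, E1KO and E2KO and Lect2 in DKO did not. The median over the 10 genes of the DKO difference minus that of the others was 1.45. It was 1.18 with the 8-month reference, 1.68 with the mean of all 2-month columns as reference, 0.93 with hepatocyte-marker scaling, 2.13 with a pseudocount of 0.1 and 0.94 with a pseudocount of 5. For Nkd1 it turned from -0.16 to 0.28 with the mean of all 2-month columns. Hepatocyte-marker scaling moved the median of all genes by 0.29 in WT, -0.16 in E1KO, -0.10 in E2KO and -0.47 in DKO, and upper-quartile scaling by -0.10 in E1KO. Other pericentral genes lower in WT numbered 20, or 13 with hepatocyte-marker scaling. Periportal genes lower in WT numbered 12, or 6 with the 8-month reference, 7 with the mean of both ages and 5 with hepatocyte-marker scaling. The causes of these moves were not tested.

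Counts of genes called by limma moved more. DKO against WT gave 25, and 9 at a filter of 5 FPKM, 299 on all 12 columns, 15 without the column labelled E1KO at 8 months and 11 from these 2 genotypes alone. E1KO against WT gave 4, and 2 with a pseudocount of 5, with no filter or on 12 columns, and 0 from the 2 genotypes alone (340 at an unadjusted p under 0.05). E2KO against WT gave 0, and 1 without the column labelled E1KO at 8 months. DKO against E2KO gave 23, and 37 with no filter, 8 at 5 FPKM, 348 on 12 columns, 13 without that column and 0 from the 2 genotypes alone (2143 unadjusted). Age gave 67, and 32 with a pseudocount of 5, 0 with no filter (3133 unadjusted), 489 on 12 columns and 8 without that column. On all 12 columns, Oat in E2KO against WT turned from 0.48 to -0.040 and Cyp2e1 in DKO against E2KO from -0.64 to 0.68. That fit includes the CCl4 columns on which the genes were chosen, so its p-values for them are not used. Oat with age passed after quantile normalization (limma adjusted p = 0.0466). No paired analysis was possible because each group has 1 column. With 1 value per group and unknown depth, neither the spread between animals nor counting error limits could be given.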
